A study of Mus musculus with 12 samples.

Results

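Expression of 10 border macrophage and alternative activation genes was examined in phagocytes and GFP+ cells, sorted from mouse brain tumors driven by RasV12 and from normal cerebellum. The genes are Mrc1, Cd163, Lyve1, Folr2, Cbr2, Ms4a7, Pf4, Msr1, Arg1 and Retnla. They were taken by symbol from the deposited expression table, and all 10 of 10 were found among its 54547 genes. All 10 passed the filter on low values that left 29835 genes to test, which asked for 10 normalized counts or more in 3 or more of the 12 libraries. Only 4 of them, Mrc1, Cd163, Pf4 and Arg1, would have passed on GFP+ libraries alone. The other 6 passed through CD11b+ libraries, and of these Lyve1, Folr2 and Retnla had no read in any GFP+ library.

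The mice were of a mixed 129;C57BL/6 background and all carried Msi1-CreER, a tamoxifen-dependent recombinase driven by the gene of the neural stem cell RNA-binding protein Musashi1. Tumor libraries came from Msi1-CreER;RasV12 mice, in which the oncogenic form of Ras is expressed, and control libraries from the cerebellum of Msi1-CreER;GFP mice. From each tissue, GFP+ cells and CD11b+ phagocytes were profiled, giving 4 groups of 3 libraries. The genotype label of the tumor mice names no GFP allele. Tissue and genotype change together, so a tumor, its site in the brain and the RasV12 allele cannot be told apart. The age of the mice is not given in the labels, nor whether the 3 libraries of a group came from separate mice, and p-values then measure the spread between these libraries.

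Border macrophages live in the meninges, around vessels and in the choroid plexus, apart from the microglia of the brain tissue itself. They are known for a set of surface receptors that take up sugars, haemoglobin, hyaluronan and folate, and for the chemokine Pf4. Alternative activation is the macrophage state that interleukin-4 and interleukin-13 bring about through the receptor chain Il4ra and the factor Stat6, with Arg1, Retnla and Mrc1 among its best known products in the mouse. Msr1, a scavenger receptor, and Arg1 are also well known from tumor-associated macrophages.

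The libraries held 18519240 to 32624398 gene-assigned reads in control GFP+ cells and 21227344 to 34432725 in tumor GFP+ cells. Control phagocyte libraries held 7883870 to 34601205 reads and tumor phagocyte libraries 2951629 to 23589310, and in tumor phagocyte libraries 1 and 2 a single read was worth 4.46 and 5.54 normalized counts. Itgam, the gene of CD11b, stood between 5010 and 5256 normalized counts in control phagocytes and between 1350 and 3101 in tumor phagocytes, against 0 in control GFP+ cells and at most 0.5 in tumor GFP+ cells. The summed level of 13 pan-myeloid genes ran from 213481 to 761867 in control phagocytes and from 93334.5 to 157190 in tumor phagocytes, without overlap. In GFP+ cells that sum was 358.0 to 963.4 in controls and 1165 to 2159 in tumors, of which Cd68 gave 868.0 to 1497 in tumors.

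Transcripts that these cells should lack were also counted, as a level beside which to read low members. The 1778 olfactory and vomeronasal receptor genes averaged 192.3 to 294.6 normalized counts a gene in tumor phagocyte libraries and 122.1 in control phagocyte library 2. In control phagocyte libraries 1 and 3 they averaged 14.96 and 15.48, and in the 6 GFP+ libraries 2.69 to 11.03. Which step brought these reads into the tumor phagocyte libraries was not tested.

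Upstream sequence is shown for the 3 genes that were called higher in tumor GFP+ cells, Mrc1, Cd163 and Pf4, and for Retnla, a textbook target of Stat6. Each run is the 250 bases before the transcript start in RefSeq's promoter table of GRCm38.p6, read 5′ to 3′ on the plus strand. Capitals mark GAGGAA or its reverse complement, a form of the site read by PU.1 and other ETS factors. GGAA alone, the shorter core of such sites, was neither marked nor counted. Capitals also mark TTC and GAA with 4 bases between them, the spacing that STAT6 prefers, and TATAAA, searched on the forward strand only. The windows lie at chr2:14229164-14229413, chr6:124304401-124304650, chr5:90772185-90772434 and chr16:48842359-48842608.
Mrc1: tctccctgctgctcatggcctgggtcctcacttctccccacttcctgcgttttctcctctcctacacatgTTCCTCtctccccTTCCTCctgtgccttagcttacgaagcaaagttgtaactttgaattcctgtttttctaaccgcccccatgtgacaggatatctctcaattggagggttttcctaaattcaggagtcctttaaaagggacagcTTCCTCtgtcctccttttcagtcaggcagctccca
Cd163: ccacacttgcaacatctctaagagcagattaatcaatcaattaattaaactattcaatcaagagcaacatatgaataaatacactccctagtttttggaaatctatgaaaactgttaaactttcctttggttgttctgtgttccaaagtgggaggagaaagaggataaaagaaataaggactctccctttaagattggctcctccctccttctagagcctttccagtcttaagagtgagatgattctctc
Pf4: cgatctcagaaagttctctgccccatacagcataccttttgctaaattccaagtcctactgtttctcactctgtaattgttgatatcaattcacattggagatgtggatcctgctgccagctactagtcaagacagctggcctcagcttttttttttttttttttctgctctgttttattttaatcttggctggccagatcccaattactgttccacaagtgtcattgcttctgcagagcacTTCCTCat
Retnla: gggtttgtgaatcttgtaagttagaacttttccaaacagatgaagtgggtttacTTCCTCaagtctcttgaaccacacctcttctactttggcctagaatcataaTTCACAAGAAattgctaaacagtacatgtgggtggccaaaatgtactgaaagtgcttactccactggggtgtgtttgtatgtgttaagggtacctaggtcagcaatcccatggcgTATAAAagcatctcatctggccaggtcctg
Mrc1 held 3 copies of GAGGAA on either strand and Pf4 held 1, while the Cd163 window held no match to any of the 3 motifs. Retnla held 1 match to each of them. Of the 7 members with a sequence in the table, 4 held GAGGAA (the others being Cbr2 and Retnla), which 23.25% of the 32851 promoters in the table also hold. The STAT6 spacing stood in 2 of the 7, Retnla and Ms4a7, against 5.854% of all promoters, and TATAAA in Retnla alone, against 7.592%. No matches of different motifs overlapped, and a match of letters is a description of the sequence and no measure of binding.

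In control phagocytes the most abundant members were Pf4, Cbr2, Mrc1 and Lyve1, and the least abundant were Arg1, Folr2 and Retnla. On the FPKM scale, which divides by transcript length so that genes can be compared, Pf4 was highest at 80.9 ± 20.2 (SD, n = 3), followed by Cbr2 at 31.6 ± 20.7, Mrc1 at 24.2 ± 10.9 and Lyve1 at 23.5 ± 15.6. Cd163 averaged 11.7 ± 9.70 FPKM, Msr1 9.63 ± 7.0, Ms4a7 3.80 ± 0.781, Arg1 2.37 ± 2.39, Folr2 2.27 ± 0.666 and Retnla 0.70 ± 0.458. In this order the gap between neighbours exceeded the larger of their SDs for Pf4 over Cbr2 and for Folr2 over Retnla, and for no other pair of neighbours.

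In tumor phagocytes the order was different below Pf4, with Arg1 and Msr1 nearer the top than in controls and Lyve1 at the foot. Pf4 and Arg1 stood level, at 26.1 ± 6.99 and 26.1 ± 23.2 FPKM, followed by Msr1 at 15.6 ± 13.3, Cbr2 at 10.3 ± 10.4, Mrc1 at 9.27 ± 6.18 and Retnla at 7.33 ± 8.40. Cd163 averaged 3.97 ± 3.39 FPKM, Ms4a7 2.87 ± 2.38, Folr2 2.23 ± 1.5 and Lyve1, the last, 0.567 ± 0.896. Only the gap between Folr2 and Lyve1 exceeded the larger SD of the neighbours. In tumor GFP+ cells Pf4 stood far above the rest at 233.1 ± 74.3 FPKM, with the next gene, Arg1, at 0.80 ± 0.361. In control GFP+ cells Pf4 was at 2.53 ± 2.30 FPKM and no other member averaged above 0.433.

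**Figure D1:**
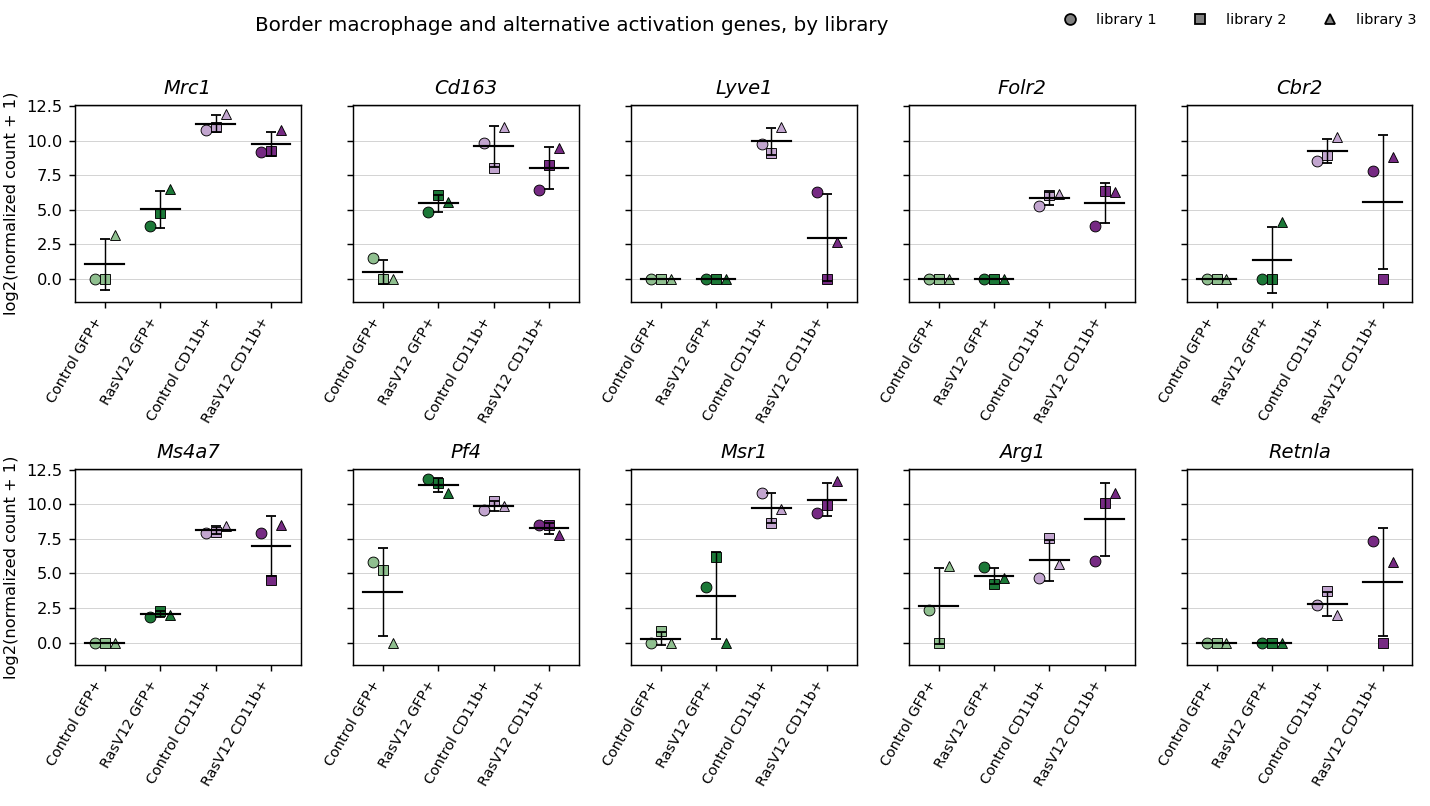
Each panel plots 1 gene, with log2(normalized count + 1) on the vertical axis and the 4 groups on the horizontal axis. Points are single libraries, bars the mean and whiskers the SD (n = 3). Pf4 is highest in tumor GFP+ cells, while Lyve1, Folr2 and Retnla are at 0 in all 6 GFP+ libraries.

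The first comparison set phagocytes of RasV12 tumors against those of control cerebellum, which asks how the border macrophage and alternative activation programs stand in tumor-associated macrophages. Of the 10 genes 1 was called, Lyve1, which fell and was kept for testing through the control phagocytes, and the other 9 did not pass. Over all tested genes 5.36% were called in this comparison, 2.97% higher and 2.39% lower, so 1 of 10 is near the background. The median log2 fold change over all tested genes was 0.74, above 0, and it moved to 0.21 with upper-quartile rescaling and to 0.36 with TMM scaling in edgeR. Member changes below are as deposited and are best read against that shift.

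Lyve1 (ENSMUSG00000030787.4, chr7:110850607-110863239, minus strand) codes for a hyaluronan receptor of lymphatic endothelium and of a subset of perivascular and meningeal macrophages. Control phagocyte libraries held 885.0, 546.3 and 1997 normalized counts, and tumor phagocyte libraries 75.8, 0 and 5.4. All 3 control libraries lay above all 3 tumor libraries, as for 8.59% of all tested genes in this direction. The log2 fold change was -6.97 ± 1.42 (SE, adjusted p = 0.0169, limma-trend with Benjamini-Hochberg adjustment), and on pooled reads, 6094 in controls and 26 in tumors, the level was 114.2-fold lower. From the group means of normalized counts it was 42.2-fold lower, and 17 of the 26 tumor reads were in library 1, so the size of the fold is uncertain. Lyve1 reached the filter's minimum in 3 control phagocyte libraries and 1 tumor phagocyte library, so it was kept for testing through the group in which it was high. For that reason its call is by itself no support for a difference. The call held in 16 of 19 alternative settings, without tumor phagocyte libraries 1 and 2 among them (adjusted p = 0.0222). It was lost in edgeR's quasi-likelihood test (adjusted p = 0.073), without control phagocyte library 1 (0.0592) and without control phagocyte library 3 (0.075), the range over all settings being 0.005 to 0.075. A bulk library cannot tell fewer Lyve1 cells among the sorted phagocytes from less Lyve1 RNA per cell.

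Lyve1 was then set against the myeloid genes. Per 1000 summed pan-myeloid counts of the same library, Lyve1 stood at 1.162, 2.559 and 3.413 in control phagocytes and at 0.542, 0 and 0.0343 in tumor phagocytes, still without overlap. On this scale 2.13% of tested genes were lower without overlap and 33.5% were higher. Among 6 lymphatic endothelial markers, Pdpn and Ccl21a were at 0 in every library, and none of the 4 tested passed. Prox1, the lymphatic transcription factor, stood at 66.6, 535.9 and 317.8 in control and 227.3, 0 and 176.6 in tumor phagocytes, with overlap. The summed level of the list, mostly Reln and Stab2, was 264.9 to 2633 in control and 3075 to 3644 in tumor phagocytes, highest where the receptor genes were high. Its part in the Lyve1 result was not tested.

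Mrc1 (ENSMUSG00000026712.3, chr2:14229392-14332057, plus strand) codes for the mannose receptor CD206 and has the microRNA gene Mir511 within it on the same strand. It stood at 1760, 2048 and 3893 normalized counts in control phagocytes and at 597.1, 614.7 and 1747 in tumor phagocytes. The tumor libraries all lay below the control libraries, the highest of them just under the lowest control. The log2 fold change of -1.48 ± 1.07 did not pass (adjusted p = 0.382), and 8.59% of all tested genes were lower without overlap. Per 1000 pan-myeloid counts the groups overlapped, at 2.31 to 9.59 in controls and 4.27 to 11.1 in tumors.

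Cd163 (ENSMUSG00000008845.9, chr6:124304656-124330527, plus strand), the receptor that clears haemoglobin bound to haptoglobin, varied widely within each group. Control phagocytes held 921.9, 260.4 and 2008 normalized counts and tumor phagocytes 84.7, 310.1 and 695.5. The groups overlapped, and the log2 fold change was -1.57 ± 1.11 (adjusted p = 0.370).

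Cbr2 (ENSMUSG00000025150.10, chr11:120729489-120732114, minus strand), a carbonyl reductase used as a marker of border macrophages, stood at 366.1, 510.4 and 1221 in control phagocytes and at 222.8, 0 and 461.2 in tumor phagocytes. The 0 was in the shallowest library, and tumor library 3 overlapped with the controls (log2 fold change -3.70 ± 1.97, adjusted p = 0.240). Ms4a7 (ENSMUSG00000024672.11, chr19:11321039-11336146, minus strand), a membrane-spanning 4A protein that sets border macrophages and recruited cells apart from microglia, held 245.4, 254.5 and 350.4 in controls. Tumor phagocytes held 245.1, 22.2 and 368.7 of Ms4a7, so that library 2 alone was low, and the log2 fold change was -1.13 ± 1.17 (adjusted p = 0.552).

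Folr2 (ENSMUSG00000032725.10, chr7:101839988-101857194, minus strand), a folate receptor of tissue-resident macrophages, was close to level between the groups. It held 38.4, 65.9 and 69.0 normalized counts in control phagocytes and 13.4, 83.1 and 76.3 in tumor phagocytes (log2 fold change -0.33 ± 1.08, adjusted p = 0.869). On the opposite strand Gm10602 and Gm45319 overlap parts of Folr2. The library kits are not stated to keep strand, so reads in the shared stretches cannot be told apart.

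Pf4 (ENSMUSG00000029373.7, chr5:90772435-90773383, plus strand), a chemokine of platelet granules and border macrophages, stood at 758.8, 1236 and 922.1 in control phagocytes. In tumor phagocytes it stood at 369.9, 354.4 and 218.0, below every control library, as for 8.59% of all tested genes. The log2 fold change was -1.64 ± 1.17 and did not pass (adjusted p = 0.375). Per 1000 pan-myeloid counts the groups overlapped, with means of 2.79 in controls and 2.61 in tumors.

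Msr1 (ENSMUSG00000025044.16, chr8:39581685-39642673, minus strand), the class A scavenger receptor, held 1836, 399.6 and 812.7 normalized counts in control phagocytes and 677.4, 1008 and 3265 in tumor phagocytes. The groups overlapped (log2 fold change 0.63 ± 1.38, adjusted p = 0.794). Relative to 1000 pan-myeloid counts the 3 tumor libraries, at 4.84, 10.8 and 20.8, lay above the 3 control libraries, at 2.41, 1.87 and 1.39. On that scale 33.5% of tested genes were higher without overlap.

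Arg1 (ENSMUSG00000019987.9, chr10:24915221-24927484, minus strand), the enzyme that splits arginine into ornithine and urea, was unevenly spread over the tumor libraries. Control phagocytes held 24.3, 190.1 and 49.9 normalized counts, and tumor phagocytes 57.9, 1080 and 1768. Tumor libraries 2 and 3 lay above every control and tumor library 1 lay among them, so the log2 fold change of 2.95 ± 1.56 did not pass (adjusted p = 0.238). Over 19 alternative settings it kept its direction, between 2.01 and 4.82, and the adjusted p ranged from 0.11 to 0.533.

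Retnla (ENSMUSG00000061100.3, chr16:48842551-48844461, plus strand), the secreted protein known as FIZZ1 or RELMα, was the least abundant member in control phagocytes. It held 5.5, 12 and 3.0 normalized counts there, and 164.9, 0 and 55.3 in tumor phagocytes, on both sides of the controls. The log2 fold change was 1.6 ± 1.55 (adjusted p = 0.523), on 22 reads in all control libraries and 129 in all tumor libraries.

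**Figure D2:**
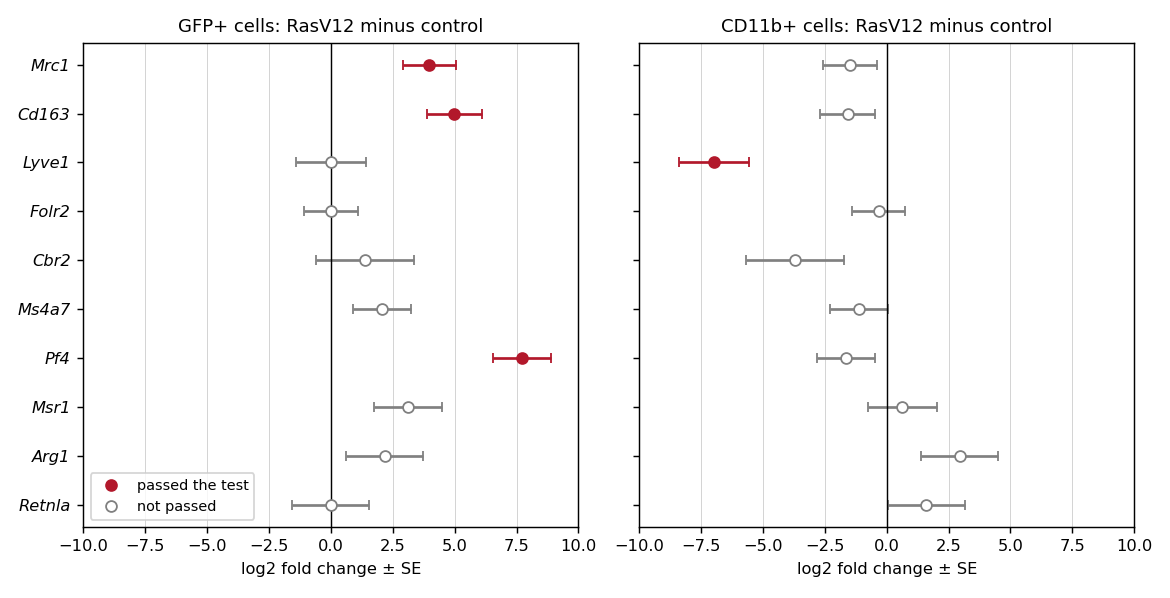
The horizontal axis is the log2 fold change of RasV12 against control with its SE, for GFP+ cells on the left and CD11b+ cells on the right (3 libraries a group), and filled red points passed the test. Pf4, Cd163 and Mrc1 pass upward in GFP+ cells and Lyve1 passes downward in CD11b+ cells.

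How far these levels stood above the receptor genes differed between the groups of phagocytes. In control phagocyte libraries 1 and 3 the 95th percentile of receptor genes was 1.4 FPKM, and 8 of the 10 members lay above it, all but Arg1 and Retnla. In control library 2 it was 11.4 FPKM, and 3 members, Mrc1, Pf4 and Cbr2, lay above it. In tumor phagocyte libraries it was 23.8, 27.8 and 18.2 FPKM. Only Pf4 lay above it in library 1, Pf4 and Arg1 in library 2, and Arg1, Msr1 and Cbr2 in library 3. Arg1 reached 29.1 and 47.6 FPKM in tumor libraries 2 and 3, higher than 95.28% and 99.44% of the receptor genes. Lyve1, Folr2, Ms4a7, Cd163, Mrc1 and Retnla were below the 95th percentile of the receptor genes in all 3 tumor phagocyte libraries, so their levels there cannot be told from that background, and for Retnla the same held in control phagocytes.

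**Figure D3:**
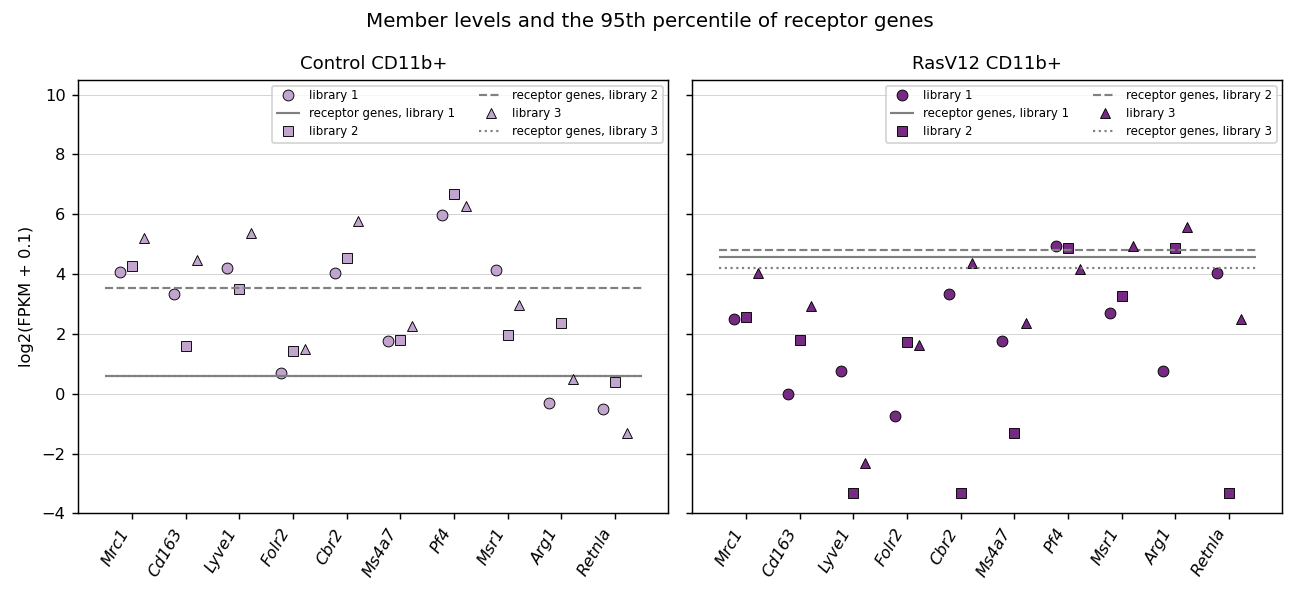
Points give log2(FPKM + 0.1) of each member in the control (left) and tumor (right) phagocyte libraries, and the lines the 95th percentile of 1778 olfactory and vomeronasal receptor genes in each library. In controls 1 and 3 most members lie above their line, and in tumor libraries 1 to 3 members do.

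**Figure D4:**
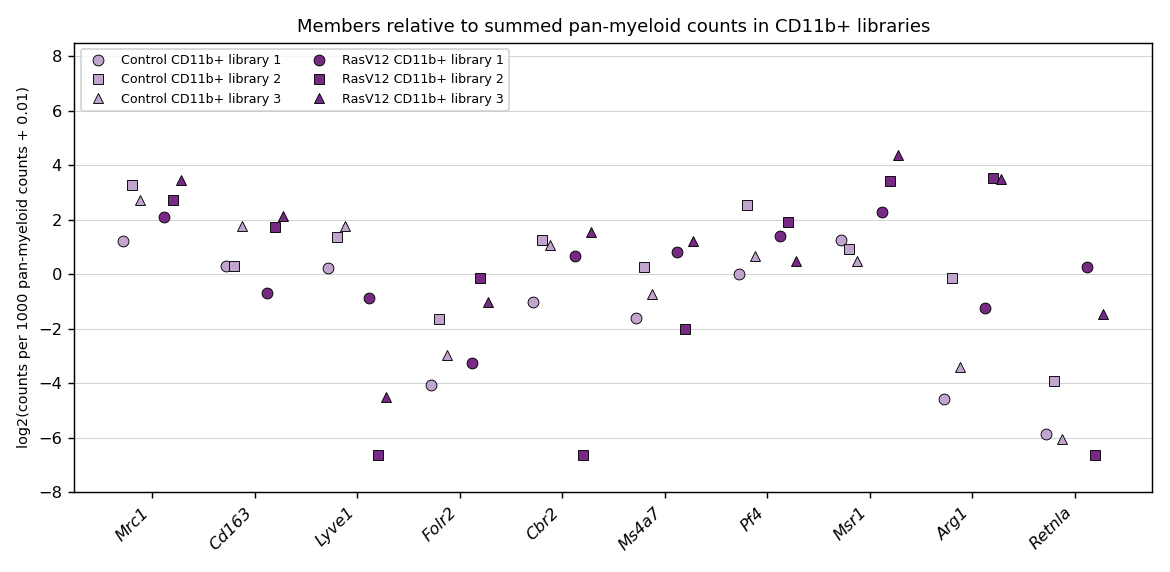
Member counts per 1000 summed counts of 13 pan-myeloid genes are shown as log2(value + 0.01), with 1 point per phagocyte library. The tumor libraries lie below all controls for Lyve1 and above all controls for Msr1, and overlap with them for the other 8 genes.

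The second comparison set GFP+ cells of the tumors against GFP+ cells of control cerebellum, which asks whether these genes were also seen outside the CD11b+ sort. Of the 10 genes 3 were called higher, Pf4, Cd163 and Mrc1, and none lower. Over all tested genes 6.79% were called, 4.14% higher and 2.65% lower, and the median log2 fold change was 0.56.

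Pf4, the chemokine gene described above, rose. Control GFP+ libraries held 54.6, 36.9 and 0 normalized counts, and tumor GFP+ libraries 3587, 2988 and 1830. The groups lay far apart, and the tumor GFP+ cells also lay above all 6 phagocyte libraries. The log2 fold change was 7.72 ± 1.17 (adjusted p = 0.0017, limma-trend), and pooled reads were 76.7-fold higher, with a counting interval of 64.9 to 91.4. Pf4 passed in all 19 alternative settings, with an adjusted p of at most 0.0125.

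Since Pf4 is also a platelet gene, 10 other platelet and megakaryocyte markers were counted. Of the 8 tested 1 rose in GFP+ cells, 1 fell and 6 did not pass, and Treml1 was at 0 in all 12 libraries. Their summed level was 186.1 to 397.9 in control and 276.8 to 705.4 in tumor GFP+ cells, with overlap. Itgb3, an integrin chain of platelets and other cells, rose (17.8, 0 and 2.0 against 580.8, 183.4 and 508.2, adjusted p = 0.00212) and gave most of the tumor sum. Gp1bb, a chain of the platelet receptor for von Willebrand factor, fell (adjusted p = 0.0455). Ppbp, a chemokine of platelet granules, stood at 0, 1.6 and 1.0 in control and 33.0, 25.2 and 15.7 in tumor GFP+ cells. It was higher without overlap, as were 17.2% of all tested genes, and did not pass (adjusted p = 0.199). Gp9 was at 0 in all control GFP+ libraries and at 0, 0 and 17.5 in tumors. The part of platelet RNA in the Pf4 level was not tested.

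Pf4 lies in a cluster of CXC chemokine genes on chromosome 5, and the levels of its neighbours are given as a description, since they were looked at after the value of Pf4 was known. Of the 7 other protein-coding genes within 150 kb, 6 are chemokine genes and 1, Rassf6, is not. Cxcl1 averaged 0.267 ± 0.462 (SD, n = 3) in control and 770.3 ± 652.7 in tumor GFP+ cells. Cxcl5 averaged 51.3 ± 83.7 and 1048 ± 229.7, and Ppbp, the gene nearest upstream, 0.867 ± 0.808 and 24.6 ± 8.66. Cxcl3 and Cxcl2 were at 0 in all control GFP+ libraries and averaged 75.5 ± 43.9 and 41.0 ± 43.9 in tumors. Cxcl15 stood at 0, 0 and 115.0 in control and 51.9, 4.6 and 0 in tumor GFP+ cells, with overlap. Rassf6 averaged 2.03 ± 3.52 and 24.4 ± 16.9. In phagocytes Cxcl1 averaged 8.90 ± 13.4 in controls and 27.3 ± 45.8 in tumors.

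Cd163 held 1.8, 0 and 0 normalized counts in control GFP+ cells and 27.5, 65.3 and 46.1 in tumor GFP+ cells, without overlap. The log2 fold change was 4.99 ± 1.11 (adjusted p = 0.0154), on 3 reads in all control libraries and 304 in all tumor libraries, a ratio of 58.7 with a counting interval of 19.9 to 286.3. The call was lost with a pseudocount of 5 (adjusted p = 0.0688), on FPKM values (0.189), without tumor GFP+ library 2 (0.0693) and without tumor GFP+ library 3 (0.0561), and held in the other 15 settings, the lowest adjusted p being 0.0109. Mrc1 held 0, 0 and 8.1 in controls and 13.5, 25.8 and 90.1 in tumors, again without overlap, as were 17.2% of all tested genes in this direction (log2 fold change 3.98 ± 1.07, adjusted p = 0.0408). Mrc1 passed in only 7 of 19 alternative settings, the adjusted p running from 0.0117 to 0.365. Its call was lost without any 1 of the 3 tumor GFP+ or 3 control phagocyte libraries and without control GFP+ library 1 or 2. Both stayed low in tumor GFP+ cells on the FPKM scale, at 0.50 ± 0.20 for Cd163 and 0.367 ± 0.379 for Mrc1, against 11.7 and 24.2 in control phagocytes. The 95th percentile of the receptor genes was 1.4, 0.8 and 0.7 FPKM in the tumor GFP+ libraries. Cd163 lay below it in all 3, above 80.76%, 92.01% and 91.62% of the receptor genes, and Mrc1 above it in library 3 alone, so by that measure Cd163, and Mrc1 in libraries 1 and 2, cannot be told from background. Pf4 lay above that percentile in all 3 libraries.

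The other 7 members did not pass in GFP+ cells. Msr1 held 0, 0.8 and 0 in controls and 15.4, 70.5 and 0 in tumors (log2 fold change 3.12 ± 1.38, adjusted p = 0.235), and it passed only without tumor GFP+ library 3, the library at 0 (adjusted p = 0.0388). Ms4a7 had no read in controls and 2.7, 4.0 and 2.9 normalized counts in tumors, at least 4.06-fold higher when the controls are set to 3 reads in the group as a whole (adjusted p = 0.389). Cbr2 was seen in tumor library 3 alone, at 16.5 (adjusted p = 0.805). Arg1 held 4.2, 0 and 44.8 in controls and 43.4, 18.3 and 25.0 in tumors, with overlap (adjusted p = 0.526). Lyve1, Folr2 and Retnla had no read in any GFP+ library, so no fold can be given.

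General phagocyte genes were counted in GFP+ cells as well. Itgam gave 1 read in 1 tumor GFP+ library and Csf1r, the receptor that macrophages need to survive, 23.0, 1.7 and 3.6 normalized counts, against at least 13846 in tumor phagocytes. Of the 13 pan-myeloid genes 1 rose in tumor GFP+ cells, Cd68, a lysosomal protein of macrophages and other cells (log2 fold change 7.67 ± 1.30, adjusted p = 0.00331), which edgeR did not call, and 1 fell. Pf4 stood at 314.1 ± 83.6 normalized counts in tumor phagocytes and at 2802 ± 892.8 in tumor GFP+ cells (SD, n = 3). The part of phagocyte RNA in the tumor GFP+ levels of Pf4, Cd163 and Mrc1 was not tested.

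The RasV12 effects in the 2 cell types were then compared with each other. The change in phagocytes minus the change in GFP+ cells was -9.35 ± 1.65 for Pf4 on the log2 scale (adjusted p = 0.00767) and -6.55 ± 1.56 for Cd163 (adjusted p = 0.0322). These 2 of 10 members passed, both lower, against 4.4% of all tested genes, 2.06% higher and 2.34% lower. Pf4 passed in all 19 settings. Cd163 passed in 8 of them, with an adjusted p of 0.0146 to 0.125, and was lost with a pseudocount of 5 (0.0571), on FPKM values (0.117) and without tumor phagocyte libraries 1 and 2 together (0.125). It was also lost without control GFP+ library 2 or 3, without any 1 tumor GFP+ library, without control phagocyte library 1 or 3 and without tumor phagocyte library 1. Lyve1 at -6.97 ± 2.01 (adjusted p = 0.0675) and Mrc1 at -5.46 ± 1.52 (adjusted p = 0.059) did not pass. Lyve1 passed in 5 of 19 settings, among them a pseudocount of 5 (adjusted p = 0.0275) and upper-quartile rescaling (0.0435), and Mrc1 in 4, rescaling among them (0.0375). This difference uses the same libraries as both RasV12 comparisons and is no separate evidence for them.

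Phagocytes were also set against GFP+ cells of the same tissue. In control cerebellum 26.2% of all tested genes were called, 19.3% higher and 6.91% lower. Of the 4 members that would have passed the filter on GFP+ libraries alone, Mrc1 was higher in phagocytes by 10.17 ± 1.07 on the log2 scale (adjusted p = 5.23e-05), Cd163 by 9.12 ± 1.11 (adjusted p = 0.000139) and Pf4 by 6.22 ± 1.17 (adjusted p = 0.00259), each in all 19 alternative settings. For these 3 the groups did not overlap, as for 32.9% of all tested genes in this direction. Arg1 did not pass (adjusted p = 0.122). The other 6 were kept for testing through CD11b+ libraries, where they are high, so their calls are no support for a difference and are not counted. Lyve1, with 6094 reads in control phagocytes and none in control GFP+ cells, was at least 1872-fold higher, with the same setting of 3 reads for the group at 0, and Cbr2 at least 1112-fold.

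In tumors 40.1% of all tested genes were called, 29.8% higher and 10.2% lower. Of the same 4 members Mrc1 was higher in phagocytes by 4.72 ± 1.07 on the log2 scale (adjusted p = 0.00542), a call lost in edgeR (0.0646), and Pf4 was lower. Mrc1 lay below the 95th percentile of the receptor genes in all 3 tumor phagocyte libraries, and those genes averaged 192.3 to 294.6 normalized counts there against 5.96 to 11.03 in tumor GFP+ libraries. The part of that background in the difference was not tested. Pf4 was 10.98-fold lower in tumor phagocytes than in tumor GFP+ cells on pooled reads, with a log2 difference of -3.14 ± 1.17 (adjusted p = 0.0466). No library of one group overlapped with the other, as for 14.8% of all tested genes in this direction. The call held in only 8 of 19 settings, the lowest adjusted p being 0.00225, and the adjusted p reached 0.123 without tumor GFP+ library 1. It was lost without any 1 of the libraries other than the 3 of control GFP+ cells. Arg1 at 4.10 ± 1.56 missed the threshold (adjusted p = 0.0501), as did Cd163 (adjusted p = 0.078), and they passed in 5 and 2 of 19 settings. Mrc1, Arg1 and Cd163 were higher in phagocytes without overlap, as were 36.0% of all tested genes. Of the 6 members kept through CD11b+ libraries, Msr1 differed by 6.95 ± 1.38, Folr2 by 5.50 ± 1.08 and Ms4a7 by 4.95 ± 1.17, given as sizes only. Retnla differed by 4.4 ± 1.55, Cbr2 by 4.18 ± 1.97 and Lyve1 by 2.98 ± 1.42, again as sizes only. Folr2, Ms4a7, Retnla and Lyve1 lay below the receptor percentile in every tumor phagocyte library, and Msr1 and Cbr2 above it in library 3 alone.

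Other genes of the same programs were counted from lists. The counts are to be read beside the shares over all tested genes, 4.14% higher and 2.65% lower in GFP+ cells, 2.97% and 2.39% in phagocytes and 2.06% and 2.34% for the difference of effects, so that 1 gene of a list says little. Of 25 further border macrophage genes 1 fell in tumor phagocytes, Lilra5, an activating leukocyte receptor, from 347.3, 122.7 and 496.2 normalized counts to 17.8, 11.1 and 6.6 (log2 fold change -4.53 ± 1.10, adjusted p = 0.0333). No other of the 25 passed there, where 7 had an unadjusted p under 0.05 and edgeR called 1, Slc40a1, with a median log2 fold change of 0.064 against 0.74 over all tested genes. In GFP+ cells 3 rose and 2 fell, with a median of 1.1 against 0.56. The 3 were Ccl7, a monocyte-attracting chemokine (adjusted p = 0.0052), Dab2, an endocytic adaptor (adjusted p = 0.0058), and Tgfbi, a matrix protein (adjusted p = 0.0154). The 2 that fell, the endothelin receptor Ednrb and the iron exporter Slc40a1, stood at 4258 to 10440 and 223.9 to 893.4 normalized counts in control GFP+ cells and are also expressed by glia.

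Of 20 other tested alternative activation genes, 0 passed in tumor phagocytes by limma-trend and 0 by edgeR, while 5 had an unadjusted p under 0.05, and their median log2 fold change was 0.68. The chitinase-like gene Chil3 stood at 11962, 428 and 3201 in control and 325, 670 and 273 in tumor phagocytes, with overlap. Of the 5, Chil4 averaged 51.3 in control and 401.7 in tumor phagocytes, Ccl17 48.0 and 341.0, and Ccl22 35.8 and 760.4. Klf4, at 313.5 and 150.8, and Cish, at 84.6 and 0.4, averaged lower in tumors. The receptor genes averaged 192.3 to 294.6 in tumor phagocyte libraries. In GFP+ cells 4 of the 20 rose and 1 fell, where edgeR called only Il4ra. Pparg, a lipid-sensing nuclear receptor, had the largest fold of those named (log2 fold change 6.36 ± 1.22, adjusted p = 0.00692), and Il4ra (5.58 ± 1.08, adjusted p = 0.0075) and Tgfb1 (3.47 ± 0.766, adjusted p = 0.0151) rose with it. Ppargc1b, a coactivator of mitochondrial genes, fell (-5.12 ± 1.12, adjusted p = 0.0143).

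The interleukin-4 and interleukin-13 pathway had 4 of 12 tested genes that rose in GFP+ cells, where edgeR called 1, Il4ra. In phagocytes 0 of 12 passed by limma-trend and 0 by edgeR, with 1 at an unadjusted p under 0.05. The difference of effects passed for 3 of the 12, Il4ra, Jak3 and Jak1, all lower. The 4 that rose were the receptor chain Il4ra, the kinase Jak3 (log2 fold change 6.44 ± 1.24, adjusted p = 0.00707), the factor Stat6 (3.36 ± 0.883, adjusted p = 0.036) and the feedback inhibitor Socs3 (6.71 ± 1.87, adjusted p = 0.0472). Il4ra and Stat6 also stand in the alternative activation list. The ligand gene Il13 had no read in any GFP+ library and did not pass the filter, and Il4 did not pass the test in either comparison.

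Around Arg1, the arginine and nitric oxide genes had 0 of 14 called in phagocytes by limma-trend, 5 with an unadjusted p under 0.05 and 1, Ddah2, called by edgeR. In GFP+ cells 1 of 14 rose, Odc1, which makes polyamines from ornithine (log2 fold change 2.34 ± 0.642, adjusted p = 0.0444), and edgeR called 0. Around Msr1 and Mrc1, 2 of 14 scavenger receptor genes rose in GFP+ cells, Cd68 and Mrc2, the collagen receptor related to Mrc1 (log2 fold change 8.14 ± 1.26, adjusted p = 0.00196), of which edgeR called Mrc2 only. In phagocytes 1 of the 14 fell, the endocytic receptor Lrp1 (-3.09 ± 0.646, adjusted p = 0.0188). The difference of effects passed for 3 of the 14, Mrc2, Lrp1 and Cd68.

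Around Cd163, 2 of 10 genes of haem and iron handling rose in GFP+ cells, the haem-degrading enzyme Hmox1 (log2 fold change 4.23 ± 0.948, adjusted p = 0.0161) and haemopexin, Hpx (5.59 ± 1.55, adjusted p = 0.0461). Haptoglobin, Hp, the partner that brings haemoglobin to Cd163, fell in GFP+ cells (-6.66 ± 1.27, adjusted p = 0.00665), as did Slc40a1. Of these 4 edgeR called Hp and Slc40a1 but neither Hmox1 nor Hpx. Around Lyve1, 1 of 8 hyaluronan genes rose in GFP+ cells, the hyaluronan receptor Cd44 (7.13 ± 1.40, adjusted p = 0.00782). In phagocytes 0 of 10 haem and iron genes, 0 of 11 folate genes and 0 of 8 hyaluronan genes passed by limma-trend, with 3, 1 and 1 at an unadjusted p under 0.05, and edgeR called 1 of the first list, Slc40a1, and 0 of the others.

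The genes whose pattern over the 12 libraries was most like each member were found by Pearson's r of log2(normalized count + 1), as a description, since the libraries share their groups. Folr2 went most closely with Itgam (r = 0.979), Mrc1 with the Fc receptor gene Fcgr1 (0.980), Cd163 with Galnt12 (0.983) and Msr1 with H2-DMb1 (0.980). Lyve1 went with Stfa1 (0.963), Cbr2 with Rnase6 (0.958) and Arg1 with Sgol1ut (0.947). The closest to Pf4 was Lrrfip1 (0.939), which also averaged most in tumor GFP+ cells, at 2607 normalized counts against 156.4 in control GFP+ cells. The second closest to Retnla was an olfactory receptor gene, Olfr251 (0.969), which averaged 290.5 in tumor and 21.5 in control phagocytes. Among the members, Mrc1 and Ms4a7 were most alike (r = 0.942) and Pf4 and Retnla least (0.129).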

How the data were processed

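RNA from 12 sorted samples of mouse brain was converted to cDNA with a SMARTer low-input kit and made into Nextera XT libraries, per the labels' protocols. The submitters' processing notes name HISAT2 2.1.0 for GRCm38.p6, Subread 1.6.2 with featureCounts, DESeq2 1.20.0 and bcl2fastq 2.17.1.14, without saying which tool made which value. The authors deposited normalized counts, used here as a signal that is a count divided by a factor per library, and FPKM values for the same genes. Between 99.8% and 100% of the lower values were whole multiples of 1 step per library (tolerance 0.05), which gave whole reads. A read was worth 0.358 to 5.54 normalized counts. Intervals from reads are 95% exact binomial and cover counting error only.

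Genes with at least 10 normalized counts in at least 3 libraries were tested on log2(normalized count + 1) by limma-trend, in limma 3.58.1 under R 4.3.3, with 1 mean for each of 4 groups and Benjamini-Hochberg adjustment at 0.05 over all tested genes. Fold changes on this scale understate changes of low genes. edgeR 4.0.16 on the whole reads was an alternative, among 19 tried. It called 1122 genes in GFP+ cells and 434 in CD11b+ cells. On simulated data the limma-trend procedure recovered 0% of 4-fold changes in every comparison simulated. It recovered 12% to 28% of 16-fold and 30% to 52% of 64-fold changes, so a gene that did not pass may still have changed. Gene coordinates are from GENCODE M21 on GRCm38. The members, 8 pathway lists and 14 cell type lists were chosen with earlier results of these data known. All members are named, and of each list mainly up to 4 genes per comparison with the smallest adjusted p. Some others, Tgfbi and Chil3 among them, are named beside these. Receptor genes and counts per 1000 pan-myeloid counts were added after seeing the data. The closest pattern was sought among genes other than predicted ones that averaged at least 100 in a group. Some results of the lists and of the closest patterns are not reported here.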

Additional observations from a re-analysis of the deposited data

Results flagged for a closer look

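The RasV12 effect differed between the 2 cell types for 2 of the 10 genes, by limma-trend's test of the difference itself. Over all tested genes 4.4% passed that test. For Pf4 the effect in CD11b+ cells minus that in GFP+ cells was -9.35 on the log2 scale (SE 1.65, adjusted p = 0.00767). All 3 tumor GFP+ libraries lay above all 3 control GFP+ libraries for Pf4, as for 17.2% of all tested genes. All 3 tumor phagocyte libraries lay below all 3 control phagocyte libraries, as for 8.59% of them. The Pf4 change in phagocytes taken alone did not pass (adjusted p = 0.375, limma-trend). For Cd163 the difference was -6.55 (SE 1.56, adjusted p = 0.0322), and it passed in 8 of 19 alternative settings. Cd163 lay below the 95th percentile of the receptor genes in all 3 tumor GFP+ and all 3 tumor phagocyte libraries. Its levels there cannot be told from that background. The causes were not tested.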

How the results depend on the processing

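Of 950 values of single members under 19 alternatives, 877 kept their side of the threshold, 49 lost and 24 gained a call, and none that was called reversed. Some that were not called changed direction. Ms4a7, Folr2 and Msr1 in phagocytes, and Folr2 and Arg1 in the difference of effects, each kept their direction in 17 of 19. For RasV12 against control in GFP+ cells, 2027 genes were called, 1122 with edgeR, and 1042 to 2382 leaving out 1 library. The 3 members called became 1 with a pseudocount of 5 and 1 on FPKM values, and 1 to 3 leaving out 1 library.

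In CD11b+ cells 1599 genes were called, 3542 with a pseudocount of 5, 2608 on FPKM values, 434 with edgeR, 836 without tumor libraries 1 and 2, and 373 to 5248 leaving out 1 library. The 1 member called became 0 with edgeR, which gave 2 members an unadjusted p under 0.05, and 0 to 1 leaving out 1 library. Higher calls were 55.4% of all, against 29.8% with upper-quartile rescaling and 6.91% with edgeR.

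Between CD11b+ and GFP+ cells of tumors 11953 genes were called, 4692 with edgeR, 5181 without tumor phagocyte libraries 1 and 2, and 8118 to 12797 leaving out 1 library (members 4 to 7). The members called in tumors in the main fit included Msr1, Folr2, Ms4a7 and Retnla, which the filter kept through CD11b+ libraries. The calls of these genes are no support for a difference. Higher calls were 74.4% of all genes called, 61.5% rescaled and 32.7% with edgeR. In controls 7826 were called, 4613 with edgeR and 5160 to 8707 leaving out 1 library (members 8 to 9, most of them kept by the filter through CD11b+ libraries), with 73.7% higher and 63.1% in edgeR. For the difference of effects 1312 were called and 578 to 2227 leaving out 1 library. The 2 members became 4 with upper-quartile rescaling and 1 to 3 leaving out 1 library, and 46.9% of calls were higher, 32.2% rescaled and 26.6% with edgeR. The cause of these shifts was not tested.

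Same-numbered libraries did not deviate together (correlations of -0.0289 to 0.0897). With the replicate block 1855 genes were called in GFP+ cells and 1212 in CD11b+ cells, and 3 and 1 members, and the difference of effects passed for Mrc1 (adjusted p = 0.0311).

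Depth limits the tumor phagocytes most: in libraries 1 and 2 a gene with 1 read already stands at 4.46 or 5.54 normalized counts, and a 0 there is a weak statement.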
